A study of Quercus x morisii and Quercus suber and Quercus ilex with 16 samples.

Results

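The 200 loci described here were transcribed at a higher level in the outer bark of every holm oak than in any other outer bark of the data set. They were chosen by their measured values in 16 RNA-seq libraries. Among the 47292 loci, those whose rlog (the regularized log2 of the read count) averaged at least 5 over the libraries were kept, which left 17754. The score of a locus was its lowest value among the 4 holm oak libraries minus its highest value among the other 12 libraries, and the 200 highest scores were taken. A score above 0 was found at 490 of the 17754 loci, or 2.76%, and that separation holds at all 200 members by construction. Of 6 loci that the rule leaves out by name, 5 would otherwise have entered. Since the values of all 16 libraries chose the members, their differences between holm oak and the other barks are given as descriptions, with no test.

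The 16 libraries came from outer bark of trees of a mixed forest, scraped from its inner face. Rhytidome is the outer bark of holm oak (Quercus ilex), with 4 libraries from 4 trees. Rhytidome-like bark came from 4 natural hybrids of holm oak and cork oak, with 1 library per tree. Cork-like bark came from 1 hybrid tree, a backcross with cork oak, with a library each from its north, south, east and west sides. Its 4 libraries give no measure of the spread between such trees, so no p-value for cork-like bark can speak for other backcross trees. The tests below pool the spread within all 4 barks. Every p-value, also that of rhytidome-like bark against cork, therefore rests in part on the spread within that 1 tree. Cork is the outer bark of cork oak (Quercus suber), with 4 libraries from 4 trees that had not been stripped of cork before. The trees of rhytidome, rhytidome-like bark and cork were sampled on the south side. Species and bark type go together in the parents and cannot be told apart.

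In the periderm, the phellogen divides to give phellem cells with suberized walls on its outer side. In holm oak, as in most trees, new phellogens arise deeper in the bark, and the older periderms die together with the phloem enclosed between them, which makes up the rhytidome. In cork oak the phellogen stays active and builds a single thick layer of phellem, the cork. Scraped outer bark therefore mixes several cell types, and in such bulk samples fewer cells of a type and less RNA per cell cannot be told apart.

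Transcript profiles of libraries of the same bark were close, with a median Pearson r across loci between 0.98 and 1.00 in each bark. The summed level of 6 phellem loci (GPAT5, ASFT/FHT, CYP86B1 and FAR4 matches), as log2, ran between 15.4 and 16.2 in rhytidome, 11.7 and 13.4 in rhytidome-like bark, 17.4 and 17.8 in cork-like bark, and 18.3 and 18.9 in cork. The phloem marker BAM3 ran between 10.9 and 12.2 in rhytidome, 11.7 and 12.9 in rhytidome-like bark, 6.02 and 9.45 in cork-like bark, and 3.90 and 6.39 in cork. A pair of photosystem loci, as a marker of green tissue, ran between 7.96 and 8.80 in rhytidome, 7.59 and 8.70 in rhytidome-like bark, 6.78 and 7.11 in cork-like bark, and 6.42 and 6.80 in cork. None of these 9 marker loci is a member. The ranges of the phloem and green tissue markers overlapped between rhytidome and rhytidome-like bark, whereas the phellem loci were higher in all 4 rhytidome libraries than in any rhytidome-like library. The part of cell types in the members' levels was not tested.

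The scores of the members ran from 0.45 to 3.35, with a median of 0.84. The score was above 1 at 70 members and above 2 at 8. Membership at the lower end was decided by small amounts. The last 2 members had scores of 0.451 and 0.449, and the first 2 loci outside had 0.449 and 0.445. Among the 17754 loci, all 4 libraries of a bark lay above the other 12 at 490 loci for rhytidome, 1551 for rhytidome-like bark, 762 for cork-like bark and 1891 for cork, so this was least frequent for rhytidome. A separation by more than 1 was found at 71 loci for rhytidome, 67 for rhytidome-like bark, 100 for cork-like bark and 135 for cork.

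The median over members of the mean rlog was 9.51 in rhytidome, 6.45 in rhytidome-like bark, 6.46 in cork-like bark and 6.08 in cork. The medians of the 3 other barks were thus close, although single members differed between these barks in both directions. The difference between rhytidome and rhytidome-like bark ran from 0.74 to 7.86 over the members with a median of 2.80, that between rhytidome and cork-like bark from 0.86 to 10.08 with a median of 2.72, and that between rhytidome and cork from 1.01 to 8.74 with a median of 3.05, all on the log2 scale. The mean of rhytidome exceeded every other bark mean by more than 1 at 193 members, by more than 2 at 112, by more than 3 at 30 and by more than 4 at 13. The members covered a wide range of read abundance, which rlog does not scale for transcript length. In rhytidome the mean rlog was at least 12 at 24 members and under 8 at 35, and in cork it was under 3 at 11 members. Over all 16 libraries the median of the mean rlog was 6.95 for the members and 9.0 for the 17754 loci.

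**Figure D1:**
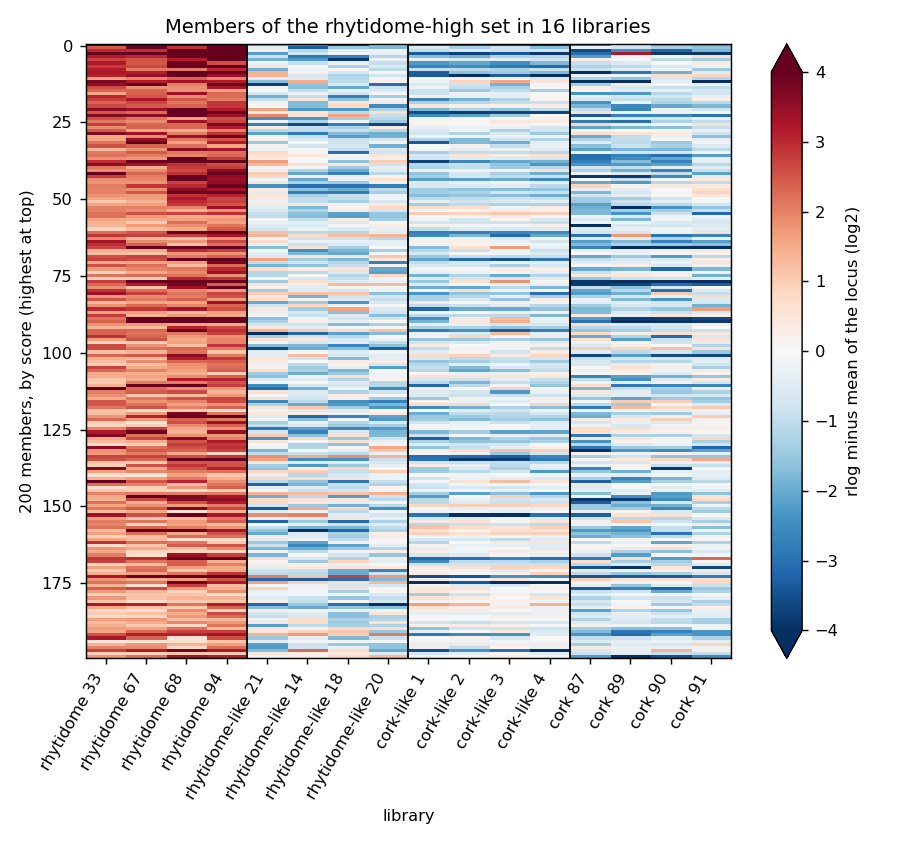
Each row is a member and each column a library, and the colour gives the rlog of the library minus the mean of that locus over the 16 libraries (log2, shown from -4 to 4). The 4 rhytidome columns are above the mean throughout because the rule chose the rows that way, whereas the other 12 columns differ from row to row.

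Names were known for few members. The study's supplementary tables, of which a part was used here, name 914 loci by their Arabidopsis match, 400 of them among the 17754 loci. They name 5 members, list 1 more without a match and hold no entry for the other 194. A protein ID was lacking in the deposited data for 6 members (3.00%), against 231 (1.30%) of the 17754 loci. No member sequence was used here.

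A pair of members matched fatty acid desaturase 8, a plastid enzyme that in Arabidopsis puts the third double bond into membrane fatty acids and so makes linolenic acid, from which jasmonate is made. LOC112030173 had an rlog of 6.86, 7.23, 7.47 and 8.40 in rhytidome, 5.23, 5.71, 5.38 and 5.66 in rhytidome-like bark, 4.94, 5.40, 5.31 and 5.40 in cork-like bark, and 5.44, 5.65, 5.79 and 5.54 in cork. LOC112005607 had 7.41, 7.64, 8.46 and 9.08 in rhytidome, 6.31, 6.18, 5.63 and 6.80 in rhytidome-like bark, 5.84, 6.08, 5.90 and 6.20 in cork-like bark, and 6.12, 6.67, 6.14 and 6.56 in cork. At both loci the rhytidome libraries stood apart from overlapping values in the other 3 barks, and rhytidome 94 was the highest library. The mean of rhytidome was higher than that of cork by 1.88 at LOC112030173 and by 1.77 at LOC112005607. The rhytidome-like minus cork difference was -0.11 ± 0.30 (SE, limma, adjusted p = 0.784) at LOC112030173 and -0.14 ± 0.35 (adjusted p = 0.752) at LOC112005607. Only uniquely mapped read pairs had been kept, and how far the reads of this pair of loci can be told apart was not tested.

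ATP-citrate lyase makes acetyl-CoA in the cytosol, the precursor for fatty acid elongation, sterols and flavonoids. The match of its subunit B-1, LOC112028925, had an rlog of 10.12, 9.38, 9.56 and 10.04 in rhytidome, 8.29, 7.66, 8.61 and 8.38 in rhytidome-like bark, 7.71, 7.41, 7.43 and 7.45 in cork-like bark, and 7.70, 7.86, 7.52 and 7.58 in cork. Of the 4 rhytidome-like trees, 3 were above every cork and cork-like library and 1 was among them. The rhytidome-like minus cork difference was 0.57 ± 0.22 (SE, limma, adjusted p = 0.0376), and the rhytidome-like minus cork-like difference was 0.74 ± 0.22 (adjusted p = 0.011). Neither passed the threshold of an adjusted p under 0.01 and a difference above 1.

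The locus LOC112029433 matched cellulase 2. Plant cellulases cleave glucan chains in the cell wall and take part in wall loosening and in the separation of cells. Its rlog was 14.39, 13.82, 12.66 and 13.64 in rhytidome, 11.10, 10.54, 10.88 and 11.04 in rhytidome-like bark, 11.26, 11.63, 11.31 and 11.33 in cork-like bark, and 9.68, 10.15, 9.93 and 9.77 in cork. No 2 of the 4 barks overlapped, in the order rhytidome, cork-like bark, rhytidome-like bark and cork. The rhytidome-like minus cork difference was 1.01 ± 0.26 (SE, limma, adjusted p = 0.00442) and the cork-like minus cork difference was 1.50 ± 0.26 (adjusted p = 0.00061). Rhytidome-like and cork-like bark were not called different, with a difference of -0.49 ± 0.26 (adjusted p = 0.139). The call for rhytidome-like bark lay close to the threshold and was lost without any 1 of 5 libraries, with a difference of 0.94 without cork 87, 0.97 without cork 91, 0.94 without rhytidome-like 21, 1.01 without rhytidome-like 18 and 0.96 without rhytidome-like 20. It was also lost without a filter on low values (adjusted p = 0.0145, limma), under treat, with the 4 cork-like libraries averaged to 1 (adjusted p = 0.0125) and after median centring, where the difference was 0.67 (adjusted p = 0.0576). The cork-like call was lost under treat (adjusted p = 0.378), after averaging (adjusted p = 0.0913) and after median centring, with a difference of 0.92 (adjusted p = 0.0141). Cellulase 2 was the single named member that passed the test in any of the 3 comparisons.

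The fifth named member, LOC112004920, matched a protein with a domain of unknown function (DUF793), which in Arabidopsis is BYPASS1, a protein that limits a mobile signal made in roots. Its rlog was 10.94, 10.53, 11.71 and 11.15 in rhytidome, 9.16, 9.05, 9.01 and 9.44 in rhytidome-like bark, 8.79, 8.74, 8.66 and 8.60 in cork-like bark, and 9.41, 9.34, 8.96 and 8.83 in cork. The cork-like libraries were the lowest, but the cork-like minus cork difference of -0.44 ± 0.21 (SE) was not called by limma (adjusted p = 0.123). A further locus with the same match, LOC112004918, averaged 3.27 ± 0.35 in rhytidome, 2.60 ± 0.65 in rhytidome-like bark, 2.82 ± 0.65 in cork-like bark and 3.15 ± 0.55 in cork (SD, n = 4 each). The pattern was not seen there, but its mean rlog of 2.96 was under the limit of the rule. Since rlog draws the differences of loci with few reads toward 0, these values cannot show that the pattern was absent.

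The 2 members of highest score have no name in the tables and are given because they lead the ranking, a choice made after their values were seen. LOC111989390 had an rlog of 12.14, 12.86, 10.97 and 12.72 in rhytidome, 7.62, 3.41, 1.96 and 4.27 in rhytidome-like bark, 2.49, 2.32, 2.13 and 1.40 in cork-like bark, and 3.18, 5.98, 3.64 and 3.45 in cork. The hybrid tree 21 and cork 89 stood above the other libraries of their barks. LOC111988229 had 8.62, 10.81, 9.06 and 11.78 in rhytidome, 5.66, 2.86, 4.65 and 4.35 in rhytidome-like bark, 5.58, 4.79, 5.33 and 4.44 in cork-like bark, and 5.83, 5.39, 4.85 and 4.51 in cork. At this locus the 3 other barks overlapped, and rhytidome 67 and 94 were the highest libraries.

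**Figure D2:**
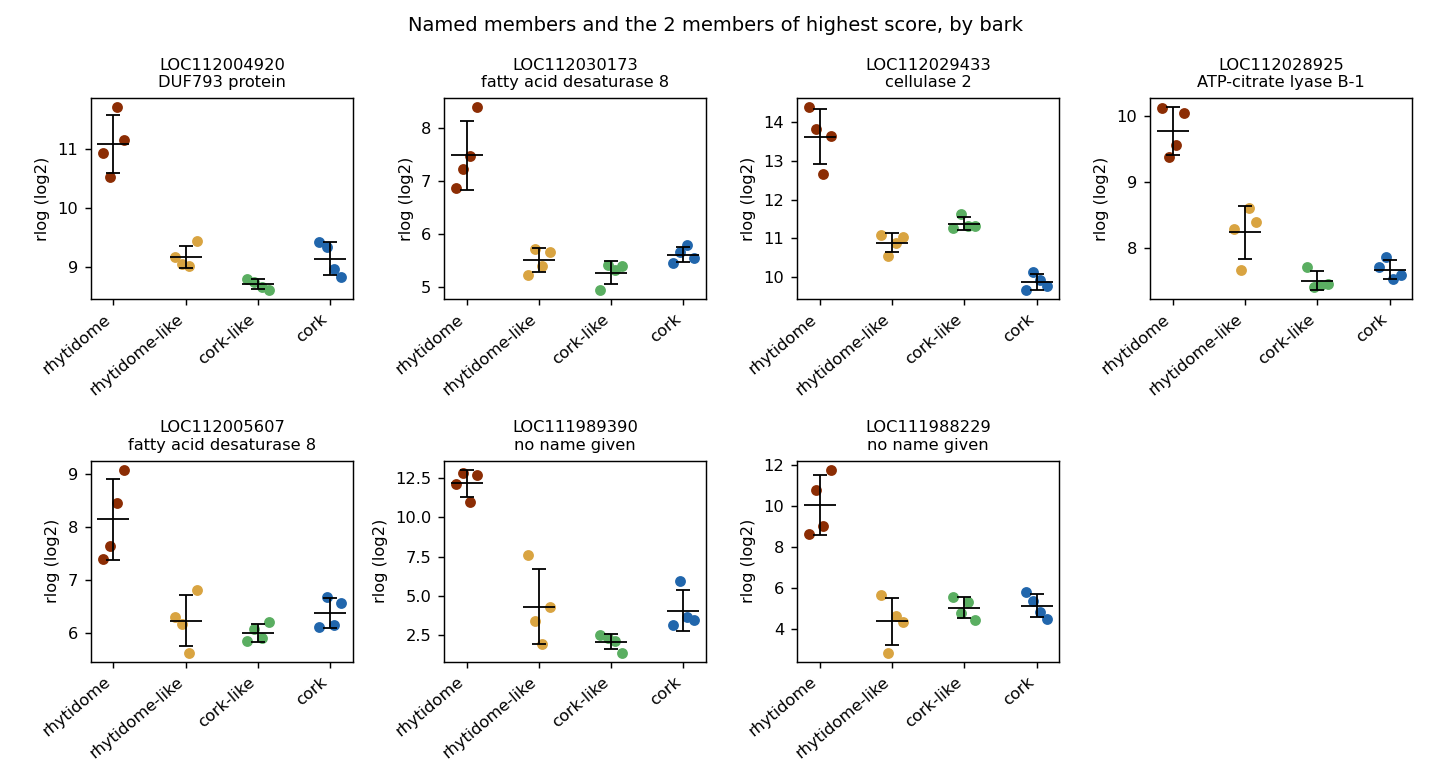
Points are the rlog values (log2) of single libraries in rhytidome, rhytidome-like bark, cork-like bark and cork, 4 each, in the panels of the 5 named members and the 2 members of highest score, and bars give the mean and SD. Cellulase 2 is the panel in which the 4 barks separate completely, with means of 13.63, 10.89, 11.38 and 9.88.

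The named members were set beside the other named loci of their pathways. Of the 106 named loci with a lipid pathway class in the tables, 3 were members, and of 8 fatty acid desaturase loci 2 were members. Of the 6 other desaturases 5 were tested, and rhytidome was higher than the mean of the other 3 barks at 2 and lower at none. These were a fatty acid desaturase 2 match, LOC112018769, which averaged 4.45 ± 1.46 in rhytidome, 2.43 ± 0.52 in rhytidome-like bark, 2.65 ± 0.76 in cork-like bark and 1.67 ± 0.90 in cork (SD, n = 4 each), and a stearoyl-ACP desaturase match, LOC111996345, with 4.23 ± 2.09 in rhytidome, 2.12 ± 0.68 in rhytidome-like bark, 0.68 ± 0.51 in cork-like bark and 0.24 ± 0.02 in cork. With quantile normalization 1 of the 5 was higher, and with median centring 2 were higher and 1 lower. Over all 25617 loci tested, 12.3% were called higher and 5.86% lower in rhytidome than in the mean of the other barks. The abundant fatty acid desaturase 2 match LOC112015494 had its highest mean in rhytidome-like bark, with 11.58 ± 0.25 in rhytidome, 13.19 ± 0.62 in rhytidome-like bark, 12.31 ± 0.17 in cork-like bark and 11.15 ± 0.24 in cork.

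Downstream of linolenic acid, lipoxygenases, allene oxide cyclase and oxophytodienoate reductase lead to jasmonate, and P450 enzymes of the CYP94B group inactivate it. The list of jasmonate synthesis and signalling held 11 named loci and no member, which includes a lipoxygenase 3 locus that the rule leaves out. In rhytidome 9 of the 11 were higher than in the mean of the other barks and none was lower, with a median difference of 2.47. With either quantile normalization or median centring 6 were higher and none lower. Many of these names come from tables that the study drew up from these samples, so their direction is not independent evidence. The lipoxygenase loci LOC112001646, LOC111990529, LOC112018950 and LOC111985820 also had scores above 0, of 1.44, 1.34, 0.58 and 0.36. So did a CYP94B3 match, LOC112005217, with a score of 1.50 at a mean rlog of 1.36. All 4 rhytidome libraries were above the other 12 at these loci, so their calls repeat the values that the rule uses. The counts are therefore a description. The left-out locus, LOC112001646, averaged 11.67 ± 0.96 in rhytidome, 7.88 ± 0.14 in rhytidome-like bark, 6.71 ± 0.56 in cork-like bark and 8.24 ± 0.72 in cork (SD, n = 4 each). The lipoxygenase 2 locus LOC111990533 was instead high in both rhytidome-type barks, with 12.12 ± 0.52 in rhytidome, 12.84 ± 0.42 in rhytidome-like bark, 8.94 ± 1.40 in cork-like bark and 9.25 ± 0.30 in cork. Oxophytodienoate reductase 3, LOC111985500, had its highest mean in rhytidome-like bark, with 11.48 ± 0.24 in rhytidome, 12.24 ± 0.36 in rhytidome-like bark, 11.05 ± 0.06 in cork-like bark and 10.67 ± 0.01 in cork, and was not called (difference from the mean of the others 0.16 ± 0.13, SE, limma adjusted p = 0.345). Of the 14 tested loci of the suberin list, none was higher and 4 were lower in rhytidome than in the mean of the other barks, which includes cork and cork-like bark. Over all loci tested, 12.3% were called higher and 5.86% lower in this comparison.

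The hybrids were placed between their parents at each member, with the mean of cork at 0% and that of rhytidome at 100%. For rhytidome-like bark the median position was 5.82%, with quartiles at -30.5% and 34.8%. Its mean was at or below that of cork at 85 members, between 0 and 25% at 43, between 25 and 50% at 51 and above 50% at 21, with a highest position of 79.0%. For cork-like bark the median position was 4.26%, with quartiles at -25.7% and 31.7%, and its mean was at or below that of cork at 92 members, up to 25% at 40, up to 50% at 44 and above 50% at 24. The highest position was 76.0%. On the linear scale the mean of rhytidome-like bark was below the midpoint of the parents at 199 of 200 members, by a median of 2.01 (log2), and that of cork-like bark at all 200, by a median of 1.90. The rule bars positions near rhytidome, so the counts of positions are partly fixed by it. The midpoint on the linear scale always lies less than 1 (log2) below the mean of rhytidome. The mean of rhytidome exceeded every other bark mean by more than 1 at 193 members, so there both hybrid barks had to be below the midpoint. The midpoint counts therefore follow almost wholly from the choice of the members and say nothing about the hybrids. The quartile ranges of the hybrid barks overlapped almost entirely.

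**Figure D3:**
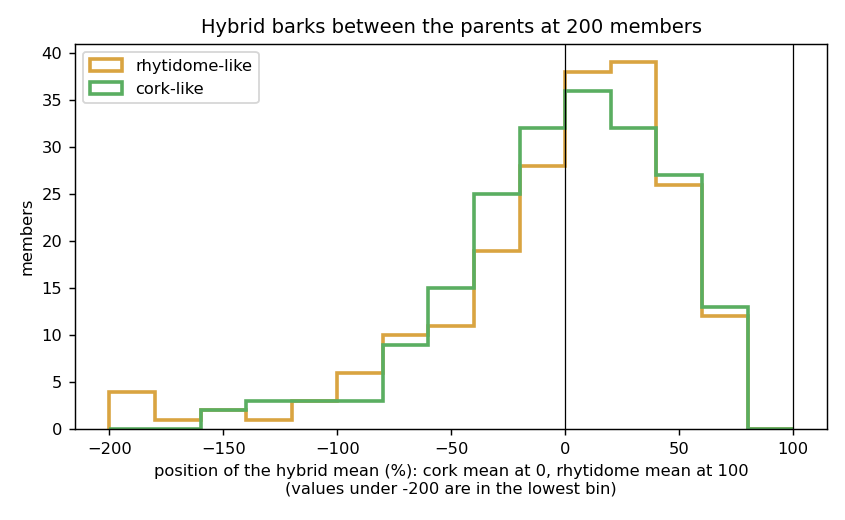
Histogram of the members by the position of the rhytidome-like and the cork-like mean between the cork mean (0%) and the rhytidome mean (100%), in bins of 20%. Both distributions centre close to cork, with medians of 5.82% for rhytidome-like bark and 4.26% for cork-like bark, and many members lie below 0%.

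The barks other than rhytidome were compared with each other by limma, fitted to all loci. The comparison of rhytidome with any bark chose the members, whereas these 3 comparisons did not, although the rule limits how high any library can be. Between rhytidome-like bark and cork, 37 members (18.5%) were called higher in rhytidome-like bark and 23 (11.5%) lower. Over all loci tested 15.4% were higher and 16.3% lower. The differences ran from -3.58 to 5.15 with a median of 0.22 over the members, against a median of 0.14 over all loci. Among the 17754 loci at the level of the rule 16.9% were higher and 19.6% lower. Higher calls were thus about as frequent among the members as among those loci, lower calls were less frequent, and higher calls were in the majority. The members and those loci are not alike in level, since many members passed the limit through rhytidome. The median over members of the mean rlog was 6.45 in rhytidome-like bark and 6.08 in cork. For the 17754 loci it was 9.0 over all 16 libraries. The part of the level and of the rule in the calls of the 3 comparisons was not tested. Higher calls made up 61.7% of the members' calls, against 48.5% of the calls over all loci. These shares were 64.3% against 48.4% after quantile normalization and 47.0% against 33% after median centring, where the majority among the members turned and that over all loci moved with it.

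Between cork-like bark and cork, 34 members (17.0%) were called higher in cork-like bark and 16 (8.0%) lower, and over all loci 8.46% were higher and 5.39% lower. The differences ran from -4.19 to 4.55 with a median of 0.13, against 0.08 over all loci. Among the 17754 loci at the level of the rule 7.69% were higher and 6.20% lower. The share of calls in both directions exceeded that of all loci, except that after median centring the lower calls were 18% of the members and 17.9% of all loci. Higher calls made up 68.0% of the members' calls, against 61.1% of the calls over all loci. These shares were 54.9% against 48.3% after quantile normalization and 36.8% against 20% after median centring, where the majority turned in both. With the 4 libraries of the single tree averaged to 1, 1 member (0.5%) was higher and 1 (0.5%) lower, against 0.64% and 0.41% of all loci. The lower calls fell to 4.5% of the members without cork 90, without cork-like 1 or without cork-like 4, and to 5.0% without cork-like 2. The share of all loci was not computed without these libraries, so that fall is not read as a result about the members.

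Between rhytidome-like and cork-like bark, 25 members (12.5%) were called higher in rhytidome-like bark and 32 (16%) lower, close to the 11.7% higher and 15.5% lower of all loci. Among the 17754 loci at the level of the rule 13.6% were higher and 17.2% lower. The differences ran from -4.17 to 5.23 with a median of -0.05, which was also the median of all loci. Higher calls made up 43.9% of the members' calls, against 43.1% of the calls over all loci. These shares were 61.3% against 50.8% after quantile normalization and 59.3% against 56.3% after median centring, so the majority depended on the scaling in both. The comparisons share libraries, those of cork in the first pair and those of each hybrid bark in the last, and are therefore not independent of each other.

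**Figure D4:**
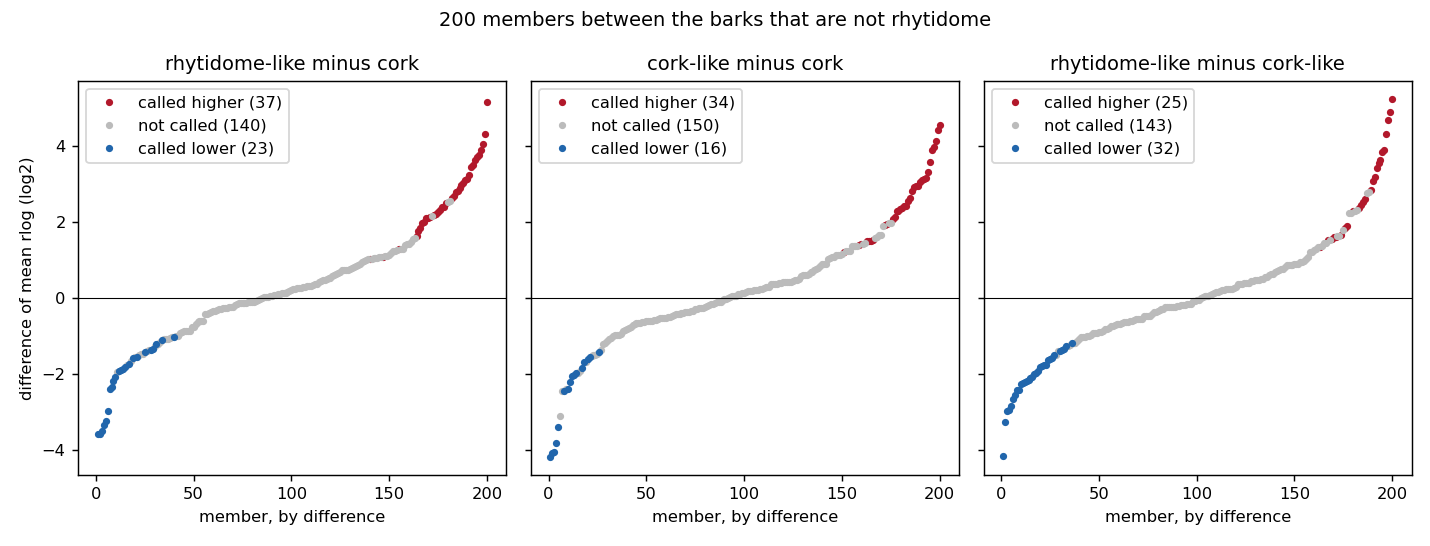
In each panel the 200 members are sorted by the difference of mean rlog (log2) between rhytidome-like bark and cork, cork-like bark and cork, or rhytidome-like and cork-like bark, and coloured by the limma call (adjusted p under 0.01 and a difference above 1 in size). Most members were not called, 140, 150 and 143 in the 3 panels, and the differences extend to both sides of 0.

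The bark next to rhytidome was not the same for all members. The next highest mean was that of cork-like bark at 74 members (37.0%), of rhytidome-like bark at 69 (34.5%) and of cork at 57 (28.5%). Among the 17754 loci, the highest of these 3 barks was cork-like bark at 25.1%, rhytidome-like bark at 40.7% and cork at 34.1%. The rule limits the highest library outside rhytidome, not the means. That library was of rhytidome-like bark at 97 members, of cork at 53 and of cork-like bark at 50. The median SD of the members was 0.29 in cork-like bark, 0.70 in rhytidome-like bark and 0.56 in cork. The part of this spread in the order of the means was not tested. All 6 orders of the 3 barks occurred, each at between 28 and 46 members. The most frequent, with cork-like bark above rhytidome-like bark above cork, was found at 46 members (23.0%) and at 10.6% of the 17754 loci. The order of cork above cork-like bark above rhytidome-like bark was found at 28 members (14.0%) and at 24.3% of those loci.

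The median SD within a bark was 0.60 for members against 0.35 for the 17754 loci in rhytidome, 0.70 against 0.40 in rhytidome-like bark, 0.29 against 0.18 in cork-like bark, and 0.56 against 0.25 in cork. An SD above 1 was found at 40 members (20.0%, against 8.76% of the 17754 loci) in rhytidome, 52 (26.0%, against 12%) in rhytidome-like bark, 10 (5.0%, against 0.873%) over the 4 sides of the cork-like tree and 38 (19.0%, against 9.23%) in cork. The members and those loci are not of 1 level. Many members passed the limit on mean rlog through rhytidome, and the lower quartile of their means was 5.12 in rhytidome-like bark, 5.09 in cork-like bark and 4.84 in cork. The part of the level in the spread was not tested.

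Single libraries stood above or below the others of their bark. In rhytidome, tree 68 was more than 1 above the mean of the other 3 trees at 46 members (23.0%, against 5.03% of the 17754 loci) and tree 94 at 39 (19.5%, against 6.97%), whereas trees 33 and 67 were so at 11 each. Tree 33 was more than 1 below the others at 46 members (23.0%, against 5.59%). Tree 94 is also the library with the lowest share of mapped reads in the study's read statistics. Without it 175 of the 200 members would still have been chosen. Leaving out a library can only raise a score, so members were lost only where other loci overtook them. Without tree 94 the loci with a score above 0, less those the rule leaves out by name, rose from 485 to 675. Such counts therefore cannot show how far the members depend on a library. In rhytidome-like bark, tree 21 was more than 1 above the other hybrids at 43 members (21.5%, against 7.82%), and it held the highest value outside rhytidome at 46 members, more than any other library. Tree 18 was more than 1 below the other hybrids at 42 members (21.0%, against 6.67%). In cork, tree 91 was more than 1 above the other cork oaks at 42 members (21.0%, against 6.22%), and it was the highest cork library at 90 members. Cork 87 was more than 1 below the other cork oaks at 40 members (20.0%, against 5.29%). Each side of the cork-like tree was more than 1 above the other sides at between 1 and 9 members, and side 1 was more than 1 below them at 21 members (10.5%, against 3.19%). The rule draws on the highest of the other libraries and the lowest rhytidome library, and so on the trees that stand apart. It would have kept 152 of the 200 members without rhytidome-like 21, 153 without rhytidome 33 and 189 without cork 91.

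**Figure D5:**
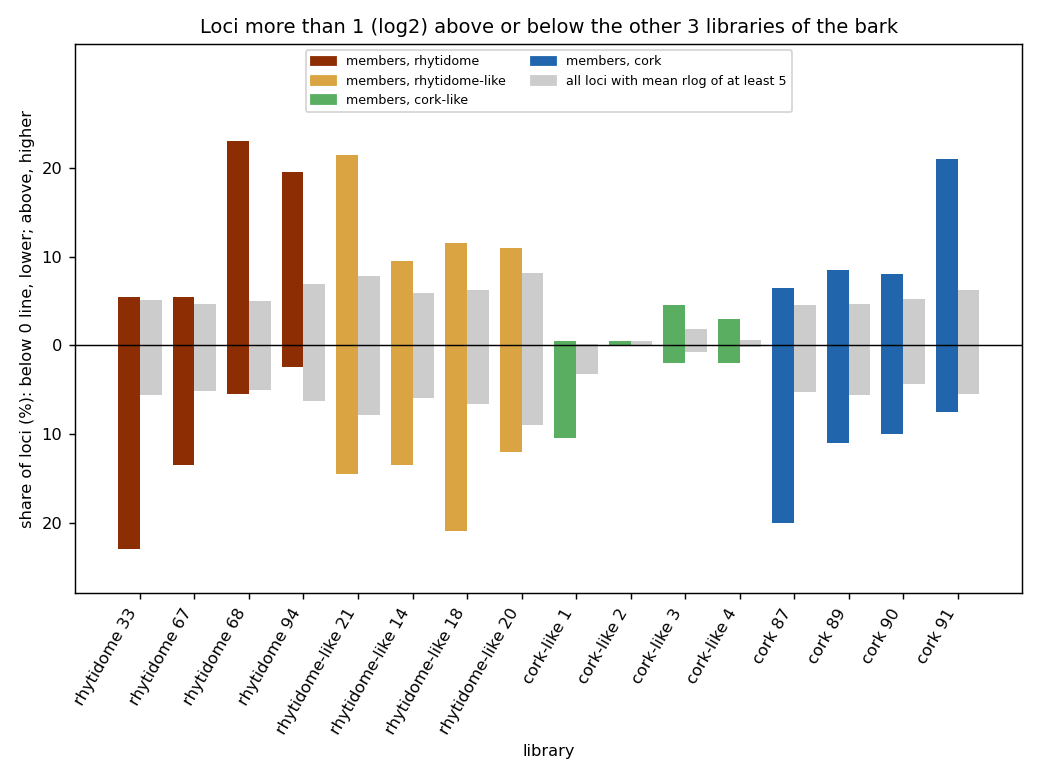
Coloured bars give, for each library, the share of the 200 members (%) that lie more than 1 (log2) above (upward bars) or below (downward bars) the mean of the other 3 libraries of the same bark, and grey bars the same share of the 17754 loci from which the members were taken. Rhytidome 68 and 94, rhytidome-like 21 and cork 91 reach between 19.5% and 23.0% of the members, on the upper side, and rhytidome 33, rhytidome-like 18 and cork 87 between 20.0% and 23.0% on the lower side.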

How the data were processed

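RNA of outer bark had been sequenced in 16 libraries, 4 per bark, grouped by their titles. Per the study's methods, the authors trimmed the reads, mapped them with GSNAP to the cork oak genome, to which the reads of holm oak and the hybrids were also mapped, kept unique concordant pairs and counted them with HTSeq 0.11.1. The strand setting was not given in the sources used here. The deposited table holds log2 values, the rlog of DESeq2 1.38.3 scaled for depth by the authors, for 47292 loci. It holds no counts, so the depth behind single values is unknown, and rlog draws the differences of loci with few reads toward 0. Differences of rlog are log2 fold changes on that scale.

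From these values limma 3.58.1 (R 4.3.3) estimated 1 mean for each bark from all 16 libraries, with a variance trend, at the 25617 loci whose rlog averaged at least 1. P-values were adjusted by Benjamini and Hochberg over all loci tested. Called loci had an adjusted p under 0.01 and a difference above 1 in size. Summaries were made in Python 3.11.15 with pandas 2.3.3. Alternatives changed the filter, the variance trend, the scaling, the test (treat), the rule and the libraries used. The members and gene lists were chosen with earlier results of these data known. The rule for named loci took the members with a name in the study's tables, and other members were counted only. The desaturase and lipid class lists were added after the members were seen.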

Additional observations from a re-analysis of the deposited data

Results flagged for a closer look

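A single library stood apart from the other 3 of its bark at 2 of the 28 groups examined, 4 barks at each of the 5 named members and the 2 members of highest score. The gap from its nearest neighbour took up nearly the whole range of the group. At LOC111989390 cork 89 had an rlog of 5.98, against 3.18 to 3.64 in the other cork oaks. At LOC112028925, the ATP-citrate lyase B-1 match, side 1 of the cork-like tree had 7.71, against 7.41 to 7.45 on the other sides. Chance flags about 1 in 20 such groups.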

How the results depend on the processing

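Call shares are percentages of the members. The share of all loci was not computed under treat, without a filter or without each library. The members' shares in those settings are therefore not read as results about the members. Calls required to exceed a difference of 1 by limma's treat were 6.0% higher and 3.5% lower for rhytidome-like bark against cork, 4.5% and 1.5% for cork-like bark against cork, and 4.5% and 4.5% for rhytidome-like against cork-like bark. Median centring gave 17.5% lower (21.4% of all loci) for rhytidome-like bark against cork, and 10.5% higher (4.5%) and 18.0% lower (17.9%) for cork-like bark against cork. It moved the median of all loci tested to -0.19 and -0.50 in these comparisons, as against 0.14 and 0.08, and to 0.19 in the third, as against -0.05. Quantile normalization gave 19.0% higher (13.9% of all loci) for rhytidome-like against cork-like bark. With the cork-like libraries averaged to 1, calls were 0.5% higher and 0.5% lower for cork-like bark against cork, and 3.5% and 3.5% for rhytidome-like against cork-like bark. Averaging leaves 1 library for cork-like bark, and the shares of all loci called in these comparisons fell too. The members' shares after averaging are therefore not read as results about the members either. Without a filter 4.0% were lower for cork-like bark against cork. Over the 100 highest scores 10% were lower for rhytidome-like against cork-like bark (15.5% of all loci). The cause of these moves was not tested. Leaving out each library gave 14.0 to 19.5% higher and 8.5 to 12% lower for rhytidome-like bark against cork, 12.5 to 19.0% and 4.5 to 9.5% for cork-like bark against cork, and 9.0 to 14.0% and 12 to 16% for rhytidome-like against cork-like bark. The rule kept 104 of the 200 members with a mean rlog of at least 3, 99 with at least 7, 118 with scores from the means of the barks, 166 after quantile normalization, 144 after median centring, and 152 to 199 without each library. At cellulase 2 no direction turned, and its calls were lost in 12 settings. Replicate numbers are tree numbers or trunk sides. No paired analysis was possible because the barks share none of them.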

Other observations

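The limit on mean rlog left out loci with a like pattern at lower levels. Of 7863 loci with a mean rlog between 1 and 5, 577 had all 4 rhytidome libraries above the other 12, and 299 had a score at or above that of the last member. Names are known for 13 of the 299. A lipoxygenase 2 match, LOC111990529, had an rlog of 5.56, 8.62, 4.91 and 10.62 in rhytidome, and averaged 1.48 ± 0.60 in rhytidome-like bark, 2.51 ± 0.87 in cork-like bark and 1.22 ± 0.78 in cork (SD, n = 4 each). The rhytidome trees 67 and 94 were far above the other holm oaks. A metacaspase 1 match, LOC111993971, of a family of cysteine proteases tied to cell death in plants, had 4.86, 7.62, 4.51 and 4.57 in rhytidome, and averaged 1.48 ± 0.92 in rhytidome-like bark, 0.42 ± 0.32 in cork-like bark and 0.84 ± 0.43 in cork. A phospholipase D alpha 1 match, LOC111994327, had 4.17, 6.55, 3.44 and 3.39 in rhytidome, and averaged 1.13 ± 0.81 in rhytidome-like bark, 1.20 ± 0.69 in cork-like bark and 1.26 ± 0.34 in cork. In both, rhytidome 67 was the highest library. A chitinase match, LOC111999175, and a match of CYP94B3, LOC112005217, which inactivates jasmonate in Arabidopsis, were also among the 13, with means in rhytidome of 4.27 ± 1.07 and 3.14 ± 0.50. These loci were chosen by the same values, so no test is given here. Where such a locus was counted among the jasmonate loci, as LOC111990529 was, its call is a description only.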
